A study of Macaca mulatta with 45 samples.

Results

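The genes described here are the cytokines, chemokines and their receptors measured in the brain of the rhesus macaque. They were taken by symbol from a table of gene counts: the CC, CXC and CX3C chemokines and their receptors, the interleukins (IL) and interleukin receptors, and the numbered ligands (TNFSF) and receptors (TNFRSF) of the tumour necrosis factor (TNF) superfamily, with 1 chemokine left out. The rule matched 114 of the 30246 genes in the table: 17 chemokine ligands, 13 chemokine receptors, 27 interleukins, 33 interleukin receptors, 3 soluble interleukin antagonists, 6 TNF superfamily ligands, 14 TNF superfamily receptors and 1 enzyme that carries an interleukin symbol (IL4I1). Other genes of these families, such as CX3CR1, IL1B, CXCL8, CCR2 and CCL3, were not analysed here.

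Chemokines are small secreted proteins that steer leukocytes through G protein-coupled receptors. Interleukins signal through receptor chains that are shared in part between ligands and feed JAK kinases and STAT transcription factors or, for the IL-1 and IL-17 families, adaptors that lead to NF-kB. TNF superfamily receptors activate NF-kB and, where they carry a death domain, caspases. In the brain most of these genes are read at low levels, in glia, vessel cells and the few leukocytes at the vessels, and white matter is a classic site of delayed injury after brain irradiation.

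RNA was sequenced from 3 brain regions of 15 monkeys: Brodmann area 46 of the dorsolateral prefrontal cortex, the hippocampus, and the centrum semiovale, which is deep white matter. In the 5 controls only the thorax had been exposed, to 10 Gy, and the brain dose is labelled 0.1 Gy, so the controls were themselves irradiated animals. Fractionated whole brain irradiation (fWBI), in 5 animals, came to 40 Gy in 8 sessions of 5 Gy, and necropsy followed after 12 months. Total body irradiation (TBI), in another 5, was a single dose of 6.75 Gy (2 animals), 7.2 Gy (2 animals) or 8.05 Gy (1 animal), and necropsy followed 6 to 9 years later. Hence dose, fractionation, field and time since irradiation differ together between fWBI and TBI and cannot be told apart. Vessels were flushed with saline before the brain was removed. Each animal gave 1 library per region, which makes 9 groups of 5 and 45 libraries.

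The libraries held 6625435 to 12541507 counts, of which the 114 genes took 0.0952% to 0.2217%. The mean over libraries was under 1 count for 30 of the 114 genes, and CCL14, IL17A and IL36A had no count in any library. A filter on low counts left 58 genes tested in at least 1 comparison and 56 in none. White matter libraries of control animals 1 and 3 held more neuronal RNA than the other white matter libraries: the summed level of 13 neuron markers was 11600 and 5710 CPM (counts scaled to library size) in them, against 795 to 1460 CPM in the other 13. The comparisons with control white matter that used the filter were therefore also computed without these 2 libraries. Values for cell type markers, for signalling and other cytokine genes and for the fit with no filter are given with all libraries only. Levels below are CPM per library, in animal order 1 to 5 where 5 values are given, and changes are log2 fold changes (log2 FC) with their standard error (SE) from edgeR's quasi-likelihood test, called at an adjusted p under 0.05 over all genes tested.

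In white matter 12 months after fWBI, chemokine, interleukin receptor and TNF superfamily genes were higher than in controls, among them the chemokine receptor CXCR4, the ligands CXCL10 and TNFSF12 and the receptor TNFRSF14. Of the 51 genes tested there, 18 passed the test, 16 higher and 2 lower, which is 35.3% of those tested. Over all 15235 genes tested in that comparison 16.7% passed (8.8% higher and 7.86% lower). The median log2 FC was 0.52 over the 51 genes and -0.03 over all genes tested. These are descriptions, since a gene that passes the filter through the group where it is high had to differ. All 18 lay on the called side of the control mean in 5 of 5 fWBI animals. They were called from these same libraries, so this agreement is not separate support. In bulk tissue, fewer or more cells of a type and less or more RNA per cell cannot be told apart.

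Among the 3 TNF superfamily ligands tested, 2 were higher and none lower. TNFSF12 encodes TWEAK, a ligand of macrophages and other cells that acts through the receptor Fn14. Its level was 25.6, 31.3, 27.4, 28.9 and 28.8 CPM in the 5 control animals, 71.9, 98.5, 75.3, 94.6 and 56 CPM after fWBI, and 34.5, 32.1, 38.8, 49.7 and 33.7 CPM after TBI. Every fWBI library was above every control and every TBI library, and every TBI library was above every control. Relative to controls the change after fWBI was 2.79-fold (log2 FC 1.48 ± 0.15 SE, adjusted p = 1.26e-05). TNFSF13B, which encodes the B cell survival factor BAFF, was at 3.84, 2.45, 2.09, 3.31 and 2.27 CPM in controls and at 8.06, 6.47, 4.36, 7.26 and 2.8 CPM after fWBI. The groups overlapped through fWBI animal 5 (log2 FC 1.05 ± 0.30, adjusted p = 0.0245), and the adjusted p was 0.0563 when the fit held only the 2 groups. TNFSF10, which encodes the death ligand TRAIL, did not pass the test (log2 FC -0.33 ± 0.19, adjusted p = 0.281).

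Of the 10 TNF superfamily receptors tested, 4 were higher and none lower. TNFRSF14 encodes HVEM, a receptor of leukocytes that binds the ligand LIGHT and the inhibitory receptor BTLA. It was at 2.52, 2.78, 1.89, 1.84 and 1.94 CPM in controls, at 13.4, 21.6, 8.82, 19.5 and 7.2 CPM after fWBI and at 2.94, 2.64, 4.44, 4.32 and 2.97 CPM after TBI. The lowest fWBI value was above the highest of the other 2 groups, and the change was 6.38-fold (log2 FC 2.67 ± 0.31, adjusted p = 2.74e-05). Both receptors of TNF itself rose together with it. TNFRSF1A, the widely expressed receptor with a death domain, was at 11.5 to 22.6 CPM in controls (median 17.7) and 29.7 to 50.1 CPM after fWBI (median 40.2), a log2 FC of 1.18 ± 0.18 (adjusted p = 0.000315). TNFRSF1B, the receptor found mainly on immune and vessel cells, was at 8.77 to 18.9 CPM in controls (median 11.5) and 21.9 to 39.1 CPM after fWBI (median 30.8), a log2 FC of 1.27 ± 0.22 (adjusted p = 0.000945). For both receptors the groups did not overlap. TNFRSF10A, a receptor of TRAIL, rose from 0.756 to 1.99 CPM in controls to 3.47 to 5.96 CPM after fWBI, again with no overlap (log2 FC 1.73 ± 0.28, adjusted p = 0.000532). The other 6 receptors tested did not pass: TNFRSF11B, which encodes the decoy receptor osteoprotegerin, had the smallest adjusted p of them (log2 FC 0.65 ± 0.23, adjusted p = 0.0673).

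Of the 6 chemokine ligands tested, 3 were higher and none lower. CXCL10, an interferon-induced ligand that draws T cells through CXCR3, was at 0.658, 0.556, 1.49, 2.21 and 1.4 CPM in controls, 14.6, 10.4, 4.16, 4.87 and 4.07 CPM after fWBI and 4.7, 9.19, 4.81, 2.41 and 5.42 CPM after TBI. No control library reached the lowest fWBI or TBI library, and fWBI and TBI overlapped. The change after fWBI was 6.02-fold (log2 FC 2.59 ± 0.47, adjusted p = 0.00129). CXCL16, a membrane-bound ligand of CXCR6 that also takes up oxidized lipoprotein, was at 8.44 to 11.3 CPM in controls (median 9.5) and 13.9 to 27.2 CPM after fWBI (median 22.1), with no overlap (log2 FC 1.15 ± 0.19, adjusted p = 0.000593). Its receptor gene CXCR6 did not pass (log2 FC 0.52 ± 0.45, adjusted p = 0.499). CCL8, a ligand that draws monocytes, had the largest fold change of the 18 genes and the widest spread. Its level was 0.11, 0.111, 0.398, 2.09 and 0.864 CPM in controls and 20.6, 5.96, 2.33, 1.99 and 2.71 CPM after fWBI. Control animal 4 lay just above fWBI animal 4, and fWBI animal 1 lay far above the others (log2 FC 3.25 ± 0.82, adjusted p = 0.0128). Leaving out 1 library at a time gave log2 FC from 2.21 to 4.13 for CCL8, with adjusted p up to 0.0452. CXCL14, a chemokine of epithelium and neurons, missed the threshold (log2 FC 1.11 ± 0.38, adjusted p = 0.0576), and CXCL12, the ligand of CXCR4, was at a log2 FC of -0.10 ± 0.30 (adjusted p = 0.885).

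CXCR4 was the 1 chemokine receptor called among the 4 tested. It guides leukocytes and progenitor cells towards CXCL12 and is also carried by microglia and vessel cells. White matter held 5.26, 8.89, 7.77, 13 and 13.1 CPM in controls, 47, 111, 58.8, 113 and 22 CPM after fWBI and 8.82, 11.7, 11.1, 7.24 and 5.95 CPM after TBI. Every fWBI library lay above all libraries of the other groups, while control and TBI libraries covered the same range. The change after fWBI was 7.36-fold (log2 FC 2.88 ± 0.40, adjusted p = 0.000153). CCR6, the receptor of CCL20, lay lower after fWBI without passing the test (log2 FC -1.40 ± 0.50, adjusted p = 0.0671).

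**Figure D1:**
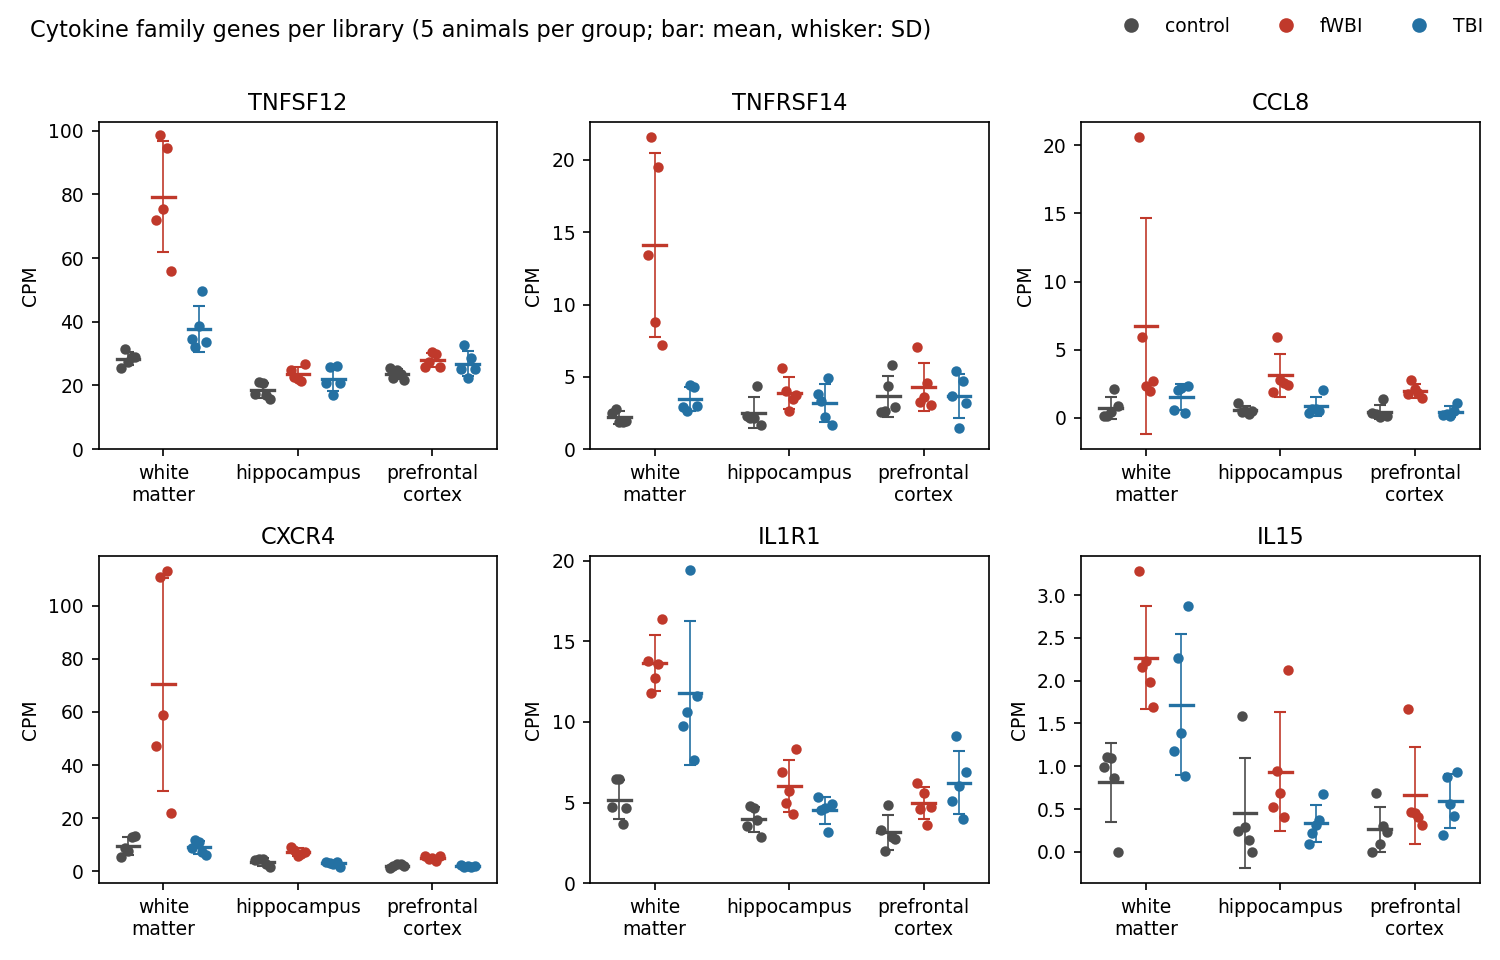
Level in CPM (vertical axis) of TNFSF12, TNFRSF14, CCL8, CXCR4, IL1R1 and IL15, of the genes called after fWBI in white matter those with the largest absolute log2 FC in their classes, in each of the 45 libraries. Points are animals, bars the mean of 5 animals and whiskers the SD; in white matter the 5 fWBI libraries of CXCR4 sit between 22 and 113 CPM, above all control and TBI libraries.

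Of the 18 interleukin receptors tested, 5 were higher and 2 lower. IL1R1, the signalling receptor of IL-1, was at 4.71, 6.45, 6.47, 3.68 and 4.64 CPM in controls, 13.8, 11.8, 12.7, 13.6 and 16.4 CPM after fWBI and 9.76, 10.6, 19.4, 7.63 and 11.6 CPM after TBI. Both irradiated groups lay above every control library, and they overlapped each other. After fWBI the change was 2.63-fold (log2 FC 1.40 ± 0.23, adjusted p = 0.000639). Its co-receptor moved the other way: IL1RAP, the accessory chain of the IL-1 and IL-33 receptors, fell from 13.6 to 23 CPM in controls (median 15) to 6.09 to 12.9 CPM (median 9.4), with a log2 FC of -0.87 ± 0.20 (adjusted p = 0.00817). The 2 highest control values of IL1RAP came from animals 1 and 3, whose libraries held more neuronal RNA. Without them its log2 FC was -0.52 (adjusted p = 0.097). IL17RD, a receptor-like protein that dampens fibroblast growth factor signalling, was at 23.7 to 39.7 CPM in controls (median 33) and 15.3 to 20.7 CPM after fWBI (median 15.9), with no overlap (log2 FC -0.96 ± 0.16, adjusted p = 0.000576). IL4R, the chain through which IL-4 and IL-13 signal, rose from 8.57 to 14.6 CPM to 18.2 to 36.4 CPM, also with no overlap (log2 FC 0.96 ± 0.18, adjusted p = 0.0016). IL17RA, the shared chain of the IL-17 receptors, rose from 6.47 to 9.67 CPM to 10 to 18.6 CPM (log2 FC 0.87 ± 0.18, adjusted p = 0.00341).

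The other 2 interleukin receptors called were read at low levels. IL2RG, the common gamma chain of the receptors of IL-2, IL-4, IL-7 and IL-15, was at 1.35 to 2.38 CPM in controls and 2.2 to 6.46 CPM after fWBI, with fWBI animal 5 inside the control range (log2 FC 1.22 ± 0.29, adjusted p = 0.00866). IL15RA, which presents IL-15 to neighbouring cells, was at 0.986, 1.56, 0.996, 3.07 and 1.51 CPM in controls and 5.62, 5.03, 3.24, 3.08 and 2.37 CPM after fWBI (log2 FC 1.26 ± 0.33, adjusted p = 0.0143). Control animal 4 was the single control inside the fWBI range, and without control libraries 1 and 3 the adjusted p of IL15RA was 0.1. IL15 itself, a growth factor of T and natural killer cells, was the 1 called gene among the 8 interleukins tested: 0.986, 1.11, 1.1, 0.859 and 0 CPM in controls and 3.28, 2.16, 2.23, 1.99 and 1.69 CPM after fWBI (log2 FC 1.47 ± 0.49, adjusted p = 0.049). The groups did not overlap, but IL15 was lost in 8 of 10 fits that left out 1 library (adjusted p up to 0.108; it held without control animal 2 or 5). TNFSF13B was lost in 4 of 10, without control animal 3 or fWBI animal 1, 2 or 4 (up to 0.0672). Of the other interleukins, IL33, an alarmin of astrocytes and oligodendrocytes, was at 46.3, 136, 59.7, 137 and 145 CPM in controls and 127, 200, 163, 178 and 225 CPM after fWBI (log2 FC 0.78 ± 0.29, adjusted p = 0.0739). Its 2 lowest control values were those of animals 1 and 3. IL34, a ligand of the microglial growth factor receptor CSF1R, did not pass (log2 FC 0.45 ± 0.39, adjusted p = 0.507), nor did IL6 (log2 FC 0.55 ± 0.50, adjusted p = 0.522).

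Markers of several cell types moved with these genes in white matter. The summed level of 6 perivascular macrophage and monocyte markers (CD163, MRC1, LYVE1, SIGLEC1, LYZ, CD14) was 37.4 to 85.8 CPM in controls, 277 to 634 CPM after fWBI and 74.9 to 191 CPM after TBI, and 4 of the 6 rose after fWBI. The 4 T cell markers in the table summed to 11.2 to 80.8 CPM in controls and 95.6 to 145 CPM after fWBI, although neither of the 2 tested passed. The mean of their log2 CPM, which weighs each marker alike, overlapped, at 0.13 to 1.61 in controls and 1.26 to 2.85 after fWBI. The 3 microglia markers in the table summed to 244 to 413 CPM in controls and 215 to 293 CPM after fWBI, with none higher and 1 lower. Neutrophil markers (0.762 to 3.09 CPM after fWBI, 0.982 to 1.56 CPM in controls) and markers of B and plasma cells (1.54 CPM at most after fWBI, 0.889 CPM in controls) were near 0, and HBA1 was at 0. Of the remaining lists, 8 of 13 neuron and 5 of 5 oligodendrocyte precursor markers tested were lower, with none higher. Neuron markers summed to 918 to 11600 CPM in controls (median 1250), highest in libraries 1 and 3, and 795 to 1460 CPM after fWBI (median 1080). The calls on neuron markers without these 2 libraries are not given. Precursor markers summed to 627 to 1430 CPM in controls and 411 to 551 CPM after fWBI. Astrocyte markers, with 2 higher and 1 lower of 6, summed to 5620 to 6570 CPM in controls and 6830 to 13400 CPM after fWBI. Their mean log2 CPM overlapped, at 8.99 to 9.24 in controls and 8.82 to 9.4 after fWBI. Endothelial markers gave 2 higher and 1 lower of 5, fibroblast and meninges markers 1 higher of 5, and oligodendrocyte (5 tested) and choroid plexus markers (2 tested) no call. The part of these cells in the changes above was not tested.

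Without control libraries 1 and 3 the fit again called 18 genes (32.7% of those tested, against 10.8% of all genes), of which 14 were among the 18 above. IL1RAP, CCL8 (adjusted p = 0.083), IL15RA and IL15 (adjusted p = 0.0725) missed the threshold. With the mean neuron marker level as a covariate 17 were called (33.3%, against 11.9% of all genes), 15 of them shared, and IL1RAP, CCL8 and IL15RA were lost. Some genes share their locus with another gene, and how reads in such overlaps were assigned is not given in the sources used here. In the RefSeq table of assembly T2T-MMU8v2.0, 20 of the 114 genes overlap another protein-coding gene. CXCL16 overlaps ZMYND15, which changed alike after fWBI (log2 FC 1.20 ± 0.34, adjusted p = 0.0227), and MED11, which did not pass (log2 FC 0.05 ± 0.12, adjusted p = 0.851); IL2RG overlaps MED12 (log2 FC 0.14 ± 0.17, adjusted p = 0.66).

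**Figure D2:**
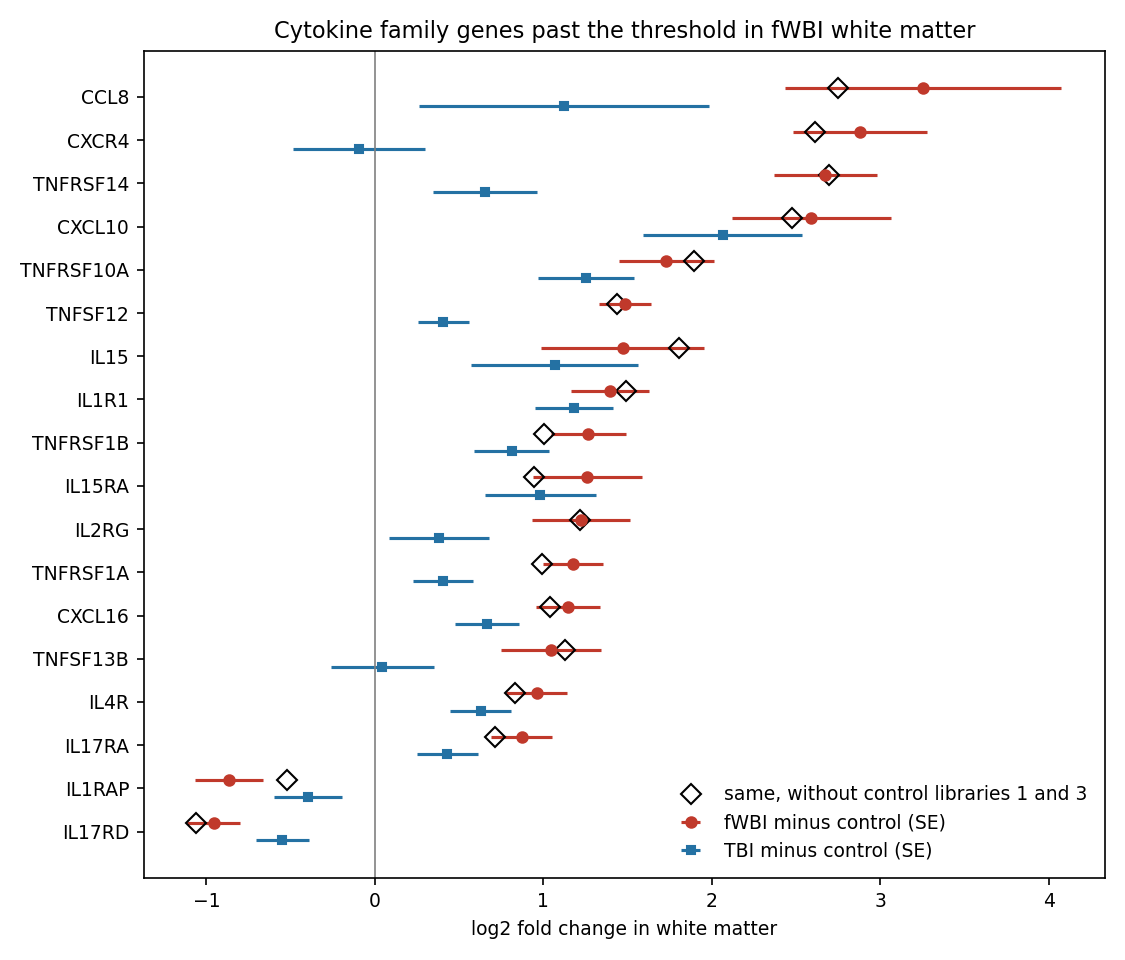
Log2 FC in white matter (horizontal axis) of the 18 genes called after fWBI: circles are fWBI minus control, squares TBI minus control, each with its SE, and diamonds fWBI minus control without control libraries 1 and 3. CXCR4 stands at 2.88 after fWBI and at -0.09 after TBI, while IL1R1 stands at 1.40 and 1.18.

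Several genes too low for the filter had more counts after fWBI than in controls. CCL7, a monocyte chemoattractant of the same cluster as CCL8, had 0, 0, 0, 1 and 0 counts in the control white matter libraries, 8, 28, 29, 22 and 19 counts after fWBI and 2, 3, 1, 0 and 0 counts after TBI. The fWBI libraries did not overlap those of either group, and in the fit with no filter on low counts the adjusted p was 6.65e-05 against controls and 0.00102 against TBI. Against controls that fit called 23 of 108 genes (21.3%), where 9.05% of all 25596 genes passed. Beside CCL7 it called 5 genes that the filter had left out: IL10, the anti-inflammatory interleukin (3 to 20 counts after fWBI, 0 to 4 in controls, adjusted p = 0.0339), CXCR2, a receptor of neutrophil chemokines (7 to 11 against 1 to 4 counts, adjusted p = 0.028), IL7, a survival factor of lymphocytes (4 to 7 against 0 to 2 counts, adjusted p = 0.0315), CCL23 (1 to 17 against 0 counts in every control, adjusted p = 0.0336) and IL1RL1, the receptor of IL-33 (2 to 30 against 0 to 3 counts, adjusted p = 0.0437). For CCL23 a single animal held 17 of the 24 counts, and for IL1RL1 animals 2 and 4 held 25 and 30 of the 64. Against TBI the fit with no filter called 8 of 108 genes (7.41%), where 4.2% of all genes passed. Among them was TNFRSF18, also left out by the filter (0 to 7 counts after fWBI, 0 in every TBI library, adjusted p = 0.0462). CXCR3, the receptor of CXCL10, had 9 counts over the 5 fWBI libraries and 9 over the 5 controls. How reads that map to near-identical genes were counted is not given, so the split between CCL7, CCL8 and CCL13 is uncertain. CCL13 had 3 counts over the fWBI and 4 over the control libraries.

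After TBI no cytokine family gene passed the test in white matter with edgeR, where 0.0722% of the 15235 genes tested passed (0.0656% higher and 0.00656% lower). At an unadjusted p under 0.05 there were 20 of 51, or 39.2%, against 18.0% of all genes tested, and the median log2 FC was 0.25 against -0.01. DESeq2 called 9 of the 58 genes to which it gave an adjusted p (15.5%), where it called 4.83% of all genes. The 5 with the smallest p, all of which were also called after fWBI, are given as values. IL1R1 was at a log2 FC of 1.18 ± 0.23 (adjusted p = 0.0828), with every TBI library above every control. TNFRSF10A was at 1.25 ± 0.29 (adjusted p = 0.12) and CXCL10 at 2.06 ± 0.47 (adjusted p = 0.12), both without overlap. CXCL16 stood at 0.67 ± 0.19 (adjusted p = 0.14), also without overlap, and TNFRSF1B at 0.81 ± 0.22 (adjusted p = 0.14), with overlap. The summed level of the 6 astrocyte markers was 6700 to 7810 CPM after TBI and 5620 to 6570 CPM in controls, without overlap. The mean log2 CPM of the 6 overlapped, at 9.11 to 9.37 after TBI and 8.99 to 9.24 in controls. The part of astrocytes in the log2 FC above was not tested. The fWBI and TBI comparisons share the same 5 control animals, so these values are not independent of those after fWBI.

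Set directly against each other in white matter, fWBI and TBI differed in 7 of the 51 genes, 6 higher and 1 lower after fWBI, or 13.7% of those tested; over all genes tested 7.33% passed (4.8% higher and 2.53% lower). CXCR4 was 7.86-fold higher after fWBI (log2 FC 2.98 ± 0.40, adjusted p = 0.000263). TNFSF12 (log2 FC 1.08 ± 0.15, adjusted p = 0.000357), TNFRSF14 (log2 FC 2.02 ± 0.30, adjusted p = 0.000462) and TNFRSF1A (log2 FC 0.77 ± 0.18, adjusted p = 0.0131) also differed, each with no overlap. CXCL14 was at 9.56, 29.5, 8.82, 7.46 and 12.9 CPM after fWBI and 2.82, 4.03, 3.79, 2.03 and 3.4 CPM after TBI (log2 FC 2.08 ± 0.40, adjusted p = 0.00375). Control libraries, at 3.56 to 9.1 CPM, lay between and overlapped both. IL27RA, a receptor chain of IL-27, was at 2.06, 10.7, 3.85, 14.3 and 4.91 CPM after fWBI and 1.18 to 1.78 CPM after TBI (log2 FC 2.37 ± 0.58, adjusted p = 0.0196), and was lost in 4 of 10 fits, without TBI animal 1 or 3 or fWBI animal 2 or 4 (adjusted p up to 0.0588). IL25, an interleukin of type 2 immunity, was lower after fWBI (1.49 to 3.24 CPM) than after TBI (2.55 to 11.5 CPM), with overlap (log2 FC -1.27 ± 0.37, adjusted p = 0.0489), and was lost in 8 of 10 such fits (adjusted p up to 0.178 without TBI animal 3; it held without TBI animal 4 or 5). IL1R1, CXCL10 and TNFRSF10A did not pass in this comparison. Summed levels of 4 cell type marker lists also stood apart here, each without overlap. The microglia markers summed to 215 to 293 CPM after fWBI and 396 to 541 CPM after TBI, and the oligodendrocyte precursor markers to 411 to 551 and 1070 to 1360 CPM. Macrophage and monocyte markers were at 277 to 634 against 74.9 to 191 CPM, and T cell markers at 95.6 to 145 against 49.2 to 70.3 CPM. The mean log2 CPM of the T cell markers overlapped, at 1.26 to 2.85 after fWBI and 1.42 to 2.15 after TBI. The part of these cell types in the differences was not tested.

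In the hippocampus 2 chemokine ligands passed after fWBI, both higher, of 49 genes tested (4.08%). Over all 15357 genes tested 0.723% passed (0.514% higher and 0.208% lower). As in white matter these are descriptions, since a gene that passes the filter through the group where it is high had to differ. Control counts were 2 to 9 for CCL8 and 1 to 4 for CXCL10. CCL8 was at 1.1, 0.453, 0.489, 0.272 and 0.48 CPM in controls and 1.92, 5.93, 2.75, 2.57 and 2.41 CPM after fWBI (log2 FC 2.44 ± 0.48, adjusted p = 0.0209). CXCL10 was at 0.244, 0.453, 0.391, 0.136 and 0.24 CPM in controls and 1.49, 0.712, 2.29, 1.21 and 1.39 CPM after fWBI (log2 FC 2.19 ± 0.43, adjusted p = 0.0209). Neither gene's groups overlapped, but these levels rest on few counts, and each call was lost in 4 of 10 fits without 1 library: CCL8 without control animal 3, 4 or 5 or fWBI animal 2 (adjusted p up to 0.0667), and CXCL10 without control animal 1, 4 or 5 or fWBI animal 3 (up to 0.073). Of the other genes, CXCR4 was at 1.44 to 4.76 CPM in controls and 5.62 to 9.18 CPM after fWBI, with no overlap but short of the threshold (log2 FC 1.02 ± 0.27, adjusted p = 0.123). IL6ST, the gp130 chain through which IL-6 and its relatives signal, was at 472 to 557 CPM and 589 to 662 CPM (log2 FC 0.29 ± 0.07, adjusted p = 0.0746). IL34 was at 40.3 to 51.3 and 30.3 to 40 CPM (log2 FC -0.34 ± 0.10, adjusted p = 0.172).

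After TBI no gene of the family passed in the hippocampus with edgeR, where no gene at all passed, and 6 of 49 had an unadjusted p under 0.05 (12.2%, against 10.6% of all genes). DESeq2 called 1 of 63 (1.59%), against 0.34% of all genes. IL6ST had the smallest p of the family (log2 FC 0.28 ± 0.07, adjusted p = 0.292), with TBI libraries at 586 to 672 CPM, all above the controls. It was followed by CXCL10 (log2 FC 1.67 ± 0.45, adjusted p = 0.328), IL34 (log2 FC -0.28 ± 0.10, adjusted p = 0.382), the synaptic adhesion protein gene IL1RAPL2 (log2 FC 0.88 ± 0.37, adjusted p = 0.425) and CXCR6 (log2 FC -0.83 ± 0.35, adjusted p = 0.435). Between fWBI and TBI none passed in the hippocampus either, where 0.339% of all genes tested did (0.247% higher and 0.0912% lower); 4 of 49 had an unadjusted p under 0.05 (8.16%, against 7.18% of all genes). DESeq2 called 2 of 70 (2.86%), against 0.752% of all genes. CXCR4 was nearest (log2 FC 1.32 ± 0.28, adjusted p = 0.0534), with no overlap between the 5.62 to 9.18 CPM after fWBI and 1.74 to 3.53 CPM after TBI. CCL8 (log2 FC 1.87 ± 0.44, adjusted p = 0.11), TNFRSF1A (log2 FC 0.42 ± 0.16, adjusted p = 0.525), IL6R (log2 FC -0.39 ± 0.18, adjusted p = 0.665) and CXCR6 (log2 FC 0.72 ± 0.34, adjusted p = 0.699) came next. With 1 library left out at a time, the adjusted p of CCL8 between fWBI and TBI ranged from 0.0118, without TBI animal 5, to 0.3.

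In the prefrontal cortex CXCR4 was the 1 gene that passed after fWBI, of 43 tested (2.33%); over all 15531 genes tested 1.15% passed (0.798% higher and 0.354% lower). It was at 1.1, 1.97, 2.66, 2.7 and 1.96 CPM in controls, 5.85, 4.69, 4.95, 3.94 and 5.75 CPM after fWBI and 2.49, 1.75, 2, 1.66 and 1.87 CPM after TBI. As in white matter, fWBI libraries lay above all others and TBI libraries within the control range (log2 FC 1.29 ± 0.22 against controls, adjusted p = 0.00905). Against TBI the log2 FC was 1.36 ± 0.22 (adjusted p = 0.00766), again the 1 gene called, where 0.29% of all genes tested passed (0.212% higher and 0.0773% lower). CCL8 was at 0.0949 to 1.35 CPM in controls and 1.46 to 2.81 CPM after fWBI, with no overlap and just short of the threshold (log2 FC 2.30 ± 0.55, adjusted p = 0.0538). Leaving out 1 library at a time gave adjusted p from 0.0116, without control animal 4, to 0.138. Its counts were 1 to 9 in controls, 1 to 12 after TBI and 14 to 30 after fWBI. CCL8 passed the filter through the fWBI group, where it is high, so the lack of overlap is a description. TNFRSF11B (log2 FC 0.90 ± 0.23, adjusted p = 0.0665), IL6ST (log2 FC 0.31 ± 0.08, adjusted p = 0.089) and CXCL12 (log2 FC 0.61 ± 0.17, adjusted p = 0.0914) also had every fWBI library above every control. With TBI as the reference CCL8 (log2 FC 2.12 ± 0.52, adjusted p = 0.195), CXCL12 (log2 FC 0.57 ± 0.16, adjusted p = 0.37), IL1RAP (log2 FC -0.20 ± 0.10) and IL2RG (log2 FC 0.59 ± 0.29) did not pass. With 1 library left out at a time, the adjusted p of CCL8 against TBI ranged from 0.0374, without TBI animal 5, to 0.475.

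After TBI no gene of the family passed in the prefrontal cortex with edgeR, and none of all genes tested did. There 10 of 43 had an unadjusted p under 0.05 (23.3%, against 11.7% of all genes), and DESeq2 called 5 of 44 (11.4%, against 1.51% of all genes). IL6ST had the smallest p (log2 FC 0.35 ± 0.08, adjusted p = 0.119): TBI libraries were at 593 to 673 CPM and controls at 435 to 528 CPM. IL12RB2, a chain of the IL-12 receptor, was at a log2 FC of -0.65 ± 0.17 (adjusted p = 0.14), also with no overlap. TNFRSF11B (0.86 ± 0.23, adjusted p = 0.143), IL1R1 (0.98 ± 0.26, adjusted p = 0.145) and the death receptor gene TNFRSF21 (-0.40 ± 0.11, adjusted p = 0.147) had overlapping groups.

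In the grey matter regions too, the macrophage and monocyte markers were higher after fWBI: 124 to 173 against 61.1 to 75.7 CPM in the hippocampus and 89.8 to 131 against 35.9 to 61.8 CPM in the prefrontal cortex. Fibroblast and meninges markers were at 203 to 631 against 98.7 to 174 CPM in the hippocampus and at 224 to 506 against 123 to 157 CPM in the prefrontal cortex. T cell markers were at 24.3 to 43.3 against 10.1 to 32.3 CPM in the hippocampus, with overlap, and at 18.9 to 27.7 against 7 to 17.4 CPM in the prefrontal cortex. Their mean log2 CPM overlapped in both regions, at 0.34 to 1.5 against 0.19 to 1.73 in the hippocampus and 0.4 to 0.98 against 0.21 to 0.95 in the prefrontal cortex. Microglia markers were lower, at 92.1 to 141 against 149 to 193 CPM in the hippocampus and 63 to 96 against 101 to 119 CPM in the prefrontal cortex. So were oligodendrocyte precursor markers, at 200 to 267 against 304 to 433 CPM and 147 to 186 against 212 to 260 CPM. Choroid plexus markers varied widely among hippocampal libraries, from 26.3 to 385 CPM in controls. The part of these cells in the chemokine changes was not tested.

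Whether the fWBI difference itself depended on the region was tested over all 45 libraries with animals as blocks. It differed between white matter and prefrontal cortex for 8 of 58 genes (13.8%, 6 larger and 2 smaller in white matter), where 9.96% of 16614 genes tested differed (4.56% larger and 5.4% smaller). Between white matter and hippocampus it differed for 9 of 58 (15.5%, 8 larger and 1 smaller), where 8.96% of all genes did (4.13% larger and 4.83% smaller). In both comparisons 6 genes passed, and the share of all genes that passed in both is not given. Both comparisons use the same white matter libraries, so passing in both is not independent support. TNFRSF14 had the largest difference of effects, at log2 2.35 ± 0.40 against prefrontal cortex (adjusted p = 0.000285) and 1.94 ± 0.42 against hippocampus (adjusted p = 0.00285). In grey matter its levels overlapped between groups, at 1.68 to 4.35 CPM in control and 2.64 to 5.59 CPM in fWBI hippocampus. TNFSF12 differed by 1.22 ± 0.17 (adjusted p = 2.6e-05) and 1.10 ± 0.18 (adjusted p = 0.000132). TNFRSF1B differed by 1.36 ± 0.24 (adjusted p = 0.000311) and 1.07 ± 0.23 (adjusted p = 0.0031), and TNFRSF1A by 0.85 ± 0.19 (adjusted p = 0.00364) and 0.81 ± 0.19 (adjusted p = 0.00585). For these 4 genes the fWBI difference was larger in white matter than in either grey region.

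IL4R (0.84 ± 0.20, adjusted p = 0.00554 against prefrontal cortex, and 1.14 ± 0.19, adjusted p = 0.000274 against hippocampus) and IL17RD (-0.94 ± 0.22, adjusted p = 0.00626, and -1.08 ± 0.22, adjusted p = 0.00195) were the other 2 genes that passed in both. Against prefrontal cortex alone, CXCL16 (1.22 ± 0.31, adjusted p = 0.0107) and TNFRSF17, which encodes the plasma cell receptor BCMA (-0.91 ± 0.26, adjusted p = 0.0237), passed. Against hippocampus alone, CXCR4 (1.78 ± 0.46, adjusted p = 0.0135), IL6R, the IL-6 receptor (0.95 ± 0.26, adjusted p = 0.02), and TNFRSF10A (1.18 ± 0.37, adjusted p = 0.0417) passed. These 5 were lost without control white matter libraries 1 and 3: CXCL16 at 0.90 (adjusted p = 0.116), TNFRSF17 at -0.93 (adjusted p = 0.0544), CXCR4 at 1.32 (adjusted p = 0.147), IL6R at 0.75 (adjusted p = 0.141) and TNFRSF10A at 0.92 (adjusted p = 0.262). Leaving out 1 animal at a time lost TNFRSF10A in 7 of 10 fits (adjusted p up to 0.172), TNFRSF17 in 4 (up to 0.0872), CXCR4 in 3 (up to 0.062, without control animal 1, control animal 3 or fWBI animal 2), IL6R in 2 (up to 0.0907, without control animal 1 or fWBI animal 2) and CXCL16 in 1 (0.0501, without fWBI animal 2). TNFRSF17 overlaps GSPT1, whose effect did not differ between the regions (-0.06 ± 0.13, adjusted p = 0.84). Between hippocampus and prefrontal cortex edgeR found no difference of effects for any gene, within the family or over all genes tested, and 3 of 58 had an unadjusted p under 0.05 (5.17%, against 1.8% of all genes: IL33 at -0.65 ± 0.28, CXCL12 at -0.75 ± 0.33 and IL23A at 0.96 ± 0.45, adjusted p = 1).

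**Figure D3:**
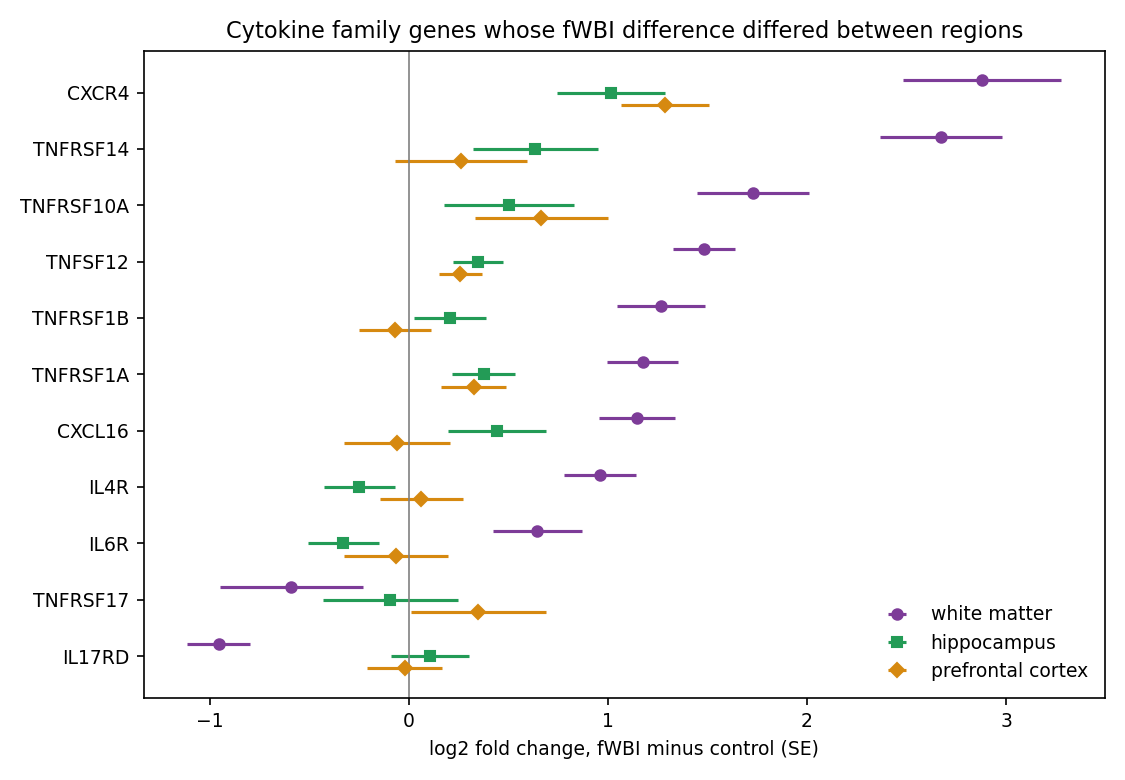
Log2 FC of fWBI minus control with SE (horizontal axis) in white matter, hippocampus and prefrontal cortex, for the 11 genes whose fWBI difference differed between white matter and at least 1 grey region. TNFSF12 stands at 1.48 in white matter, and IL17RD at -0.96, apart from both grey regions.

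In control animals the cytokine genes differed between regions about as often as other genes. Between white matter and prefrontal cortex 31 of 45 tested genes passed (68.9%, 23 higher and 8 lower in white matter), where 60.9% of all 15406 genes tested did (29.5% higher and 31.4% lower). Between white matter and hippocampus 29 of 45 passed (64.4%, 20 higher and 9 lower), against 55.9% of all genes (28.1% higher and 27.8% lower). Between hippocampus and prefrontal cortex 8 passed (17.8%, 6 higher and 2 lower), against 15% of all genes (7.68% higher and 7.29% lower). In white matter 19 of 45 genes were higher than in both grey regions (42.2%, against 23.1% of all genes) and 6 were lower (13.3%, against 22.2%).

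The genes with the largest excess in white matter over prefrontal cortex were IL25 (2.51 ± 0.608 CPM against 0.221 ± 0.0508, mean ± SD, n = 5; log2 FC 3.48 ± 0.38, adjusted p = 3.04e-05), CCR6 (log2 FC 3.10 ± 0.39, adjusted p = 7.31e-05), IL33 (105 ± 47.5 CPM against 16 ± 8.77; log2 FC 2.75 ± 0.25, adjusted p = 9.92e-06), CXCR6 (log2 FC 2.56 ± 0.58, adjusted p = 0.0029), CXCL16 (log2 FC 2.30 ± 0.21, adjusted p = 1.09e-05) and CXCR4 (log2 FC 2.23 ± 0.37, adjusted p = 0.000404). For IL25, CCR6, IL33, CXCL16 and CXCR4 the 2 regions did not overlap. CXCR6 had 8 counts in white matter of animal 1 and 50 to 88 in the others, and its log2 FC was 3.32 without animal 1. Locus partners showed the same regional pattern for some of these: CMTM5, the gene next to IL25, had a log2 FC of 4.05 ± 0.33 (adjusted p = 6.73e-06), FYCO1, which overlaps CXCR6, 2.12 ± 0.30 (adjusted p = 0.000184), and ZMYND15, which overlaps CXCL16, 2.36 ± 0.28 (adjusted p = 4.87e-05). The part of reads from these neighbours was not tested. Lower in white matter were IL1RAPL2 (log2 FC -2.94 ± 0.38, adjusted p = 9.04e-05), the death receptor gene TNFRSF25 (-2.54 ± 0.46, adjusted p = 0.000728), CXCL14 (-2.07 ± 0.27, adjusted p = 9.87e-05), IL27RA (-2.07 ± 0.43, adjusted p = 0.00164), IL12RB2 (-1.48 ± 0.46, adjusted p = 0.015) and IL1RAP (-1.04 ± 0.19, adjusted p = 0.000787). Of these 6, IL12RB2 overlapped between regions, and it was lost without animal 2, 4 or 5 (adjusted p up to 0.0689). Without white matter libraries 1 and 3, which held more neuronal RNA, the log2 FC was -3.97 for IL1RAPL2, -4.06 for TNFRSF25, -3.11 for IL27RA and -2.71 for IL12RB2.

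In the hippocampus CXCL12, which positions progenitor cells and neurons in development, was at its highest: 34.9 ± 8.08 CPM (SD, n = 5) against 7.04 ± 0.903 CPM in prefrontal cortex and 5.57 ± 0.905 CPM in white matter. Its log2 FC was 2.30 ± 0.18 against prefrontal cortex (adjusted p = 2.41e-05), and for white matter against hippocampus it was -2.60 ± 0.18 (adjusted p = 7.51e-06). IL13RA2, a decoy receptor of IL-13, was at 1.73 ± 0.559 CPM in hippocampus, 0.393 ± 0.222 CPM in prefrontal cortex and 0.11 ± 0.245 CPM in white matter. It too was higher in hippocampus than in prefrontal cortex (log2 FC 2.11 ± 0.60, adjusted p = 0.0343). IL33 (1.87 ± 0.25, adjusted p = 0.000538), IL6R (1.34 ± 0.19, adjusted p = 0.000818), TNFRSF11B (0.95 ± 0.20, adjusted p = 0.00843) and IL1RAP (0.72 ± 0.19, adjusted p = 0.0228) were likewise higher, while IL1RAPL2 (-3.37 ± 0.40, adjusted p = 0.000279) and IL12RB2 (-1.51 ± 0.45, adjusted p = 0.0449) were lower. Of these, IL12RB2 and IL13RA2 were each lost in 4 of 5 fits without 1 animal (adjusted p up to 0.134 and 0.115), IL1RAP in 3 (up to 0.0792) and TNFRSF11B in 1 (0.058, without animal 3).

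White matter set against hippocampus had on the higher side, with the first 4 also named against prefrontal cortex, IL25 (log2 FC 2.70 ± 0.35, adjusted p = 0.000106), CCR6 (2.32 ± 0.36, adjusted p = 0.000355), CXCR6 (2.16 ± 0.55, adjusted p = 0.00668), CXCL16 (1.84 ± 0.21, adjusted p = 4.43e-05), IL17RA (1.61 ± 0.24, adjusted p = 0.000256) and IL16, a T cell chemoattractant (1.43 ± 0.22, adjusted p = 0.000319). On the lower side, beside CXCL12, were IL13RA2 (-3.82 ± 0.74, adjusted p = 0.0013), IL27RA (-2.61 ± 0.43, adjusted p = 0.000478), TNFRSF25 (-2.40 ± 0.46, adjusted p = 0.00132), IL1RAP (-1.76 ± 0.19, adjusted p = 3.9e-05) and CXCL14 (-1.43 ± 0.28, adjusted p = 0.00125). All 5 counts of IL13RA2 in white matter came from animal 1. Without that animal the gene had 0 counts in white matter and 65 in hippocampus, at least 22.7-fold lower in white matter with the limit set at 3 counts over the group, which covers counting error only. Without white matter libraries 1 and 3 the log2 FC was -3.67 for IL27RA, -3.87 for TNFRSF25 and 2.85 for CXCR6, and for IL25 it was 3.28 without animal 3. Both comparisons share the white matter libraries.

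**Figure D4:**
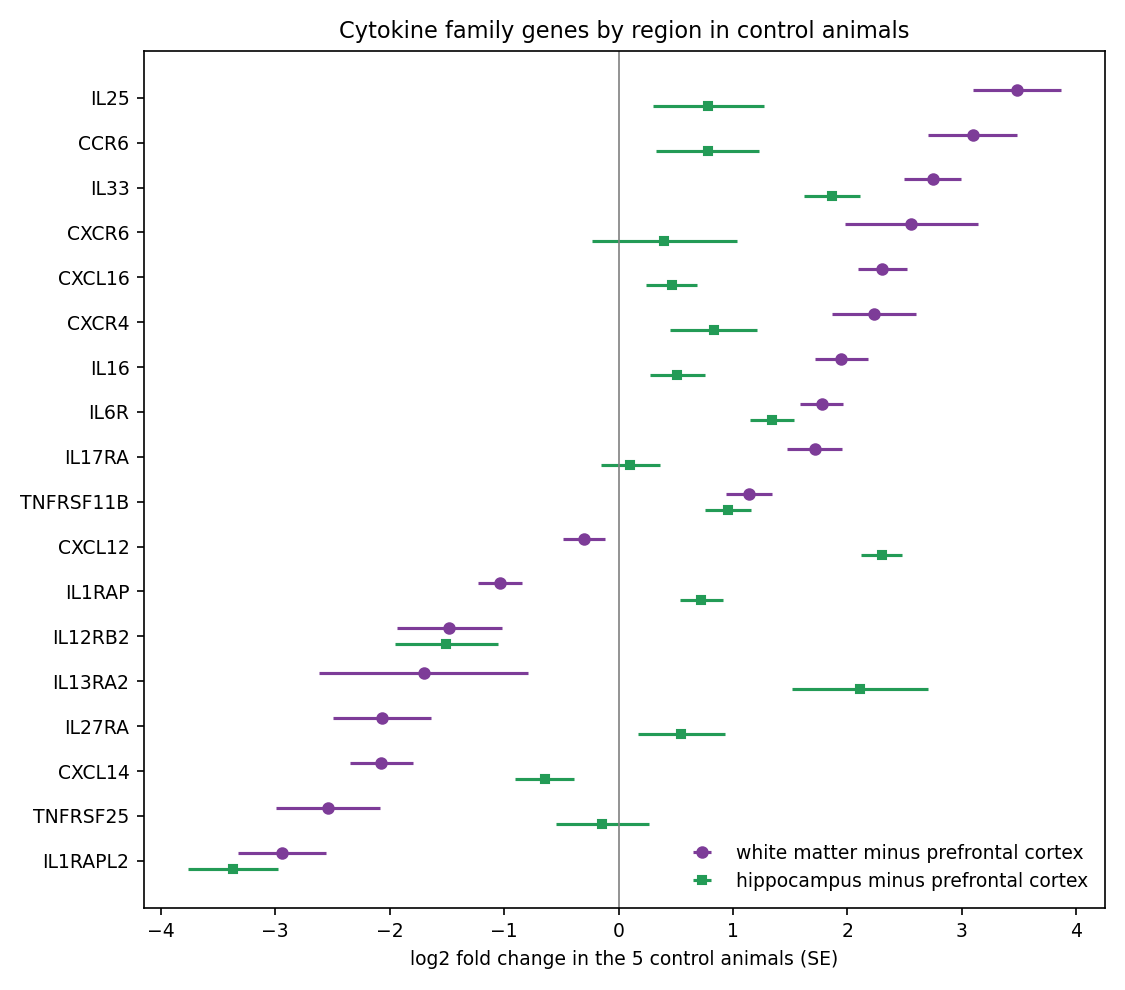
Log2 FC with SE (horizontal axis) between regions of the 5 control animals, circles for white matter and squares for hippocampus, each minus prefrontal cortex, for the genes named in the comparisons of regions. CXCL12 stands at 2.30 in hippocampus, and IL25 at 3.48 in white matter.

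Genes that carry cytokine signals onward, taken from a list of 53 kinases, transcription factors and adaptors of which 42 were in the table, were also higher in fWBI white matter: 10 of 41 tested were higher (24.4%, against 8.8% of all genes) and none lower (7.86% of all genes), with a median log2 FC of 0.28 against -0.03 over all genes. They included STAT6, the transcription factor of IL-4 signalling (log2 FC 1.46 ± 0.18, adjusted p = 6.49e-05), STAT3 (log2 FC 0.73 ± 0.13, adjusted p = 0.00143), the phosphatase gene PTPN6 (1.65 ± 0.24, adjusted p = 0.000234) and CASP8, the caspase of death receptors (1.21 ± 0.22, adjusted p = 0.00116). NLRP3, the inflammasome sensor (1.30 ± 0.29, adjusted p = 0.00546), STAT5A, RELB, MYD88 and RIPK1 were also among them. Of 61 cytokine and receptor genes with symbols outside the rule, 36 were in the table and 27 tested, and 14 were higher (51.9%, against 8.8% of all genes) and 1 lower (3.7%, against 7.86%). CSF2RB, the common beta chain of the GM-CSF receptor (2.33 ± 0.33, adjusted p = 0.000178), EDA2R, a TNF receptor family member (2.30 ± 0.40, adjusted p = 0.00084), OSMR, the oncostatin M receptor (1.35 ± 0.18, adjusted p = 0.00011), and TGFBR2 (1.24 ± 0.21, adjusted p = 0.000738) were among those higher, and CNTFR, the receptor of ciliary neurotrophic factor, was lower (-0.95 ± 0.12, adjusted p = 8.89e-05).

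In the other comparisons with controls these lists gave few calls. After fWBI neither list had a call in the hippocampus, where 0.723% of all genes passed. In the prefrontal cortex, where 0.798% of all genes were higher, 1 gene of each was higher, IRAK4 (log2 FC 0.65, adjusted p = 0.0473) and NGFR (1.44, adjusted p = 0.0286). Of the genes outside the rule named for white matter, CSF2RB (adjusted p = 0.0381) and CNTFR (adjusted p = 0.0364) had an fWBI difference that differed from prefrontal cortex. None of them differed from hippocampus. For EDA2R the log2 difference of effects was -0.08 ± 0.46 and -0.04 ± 0.37, with no call. After TBI edgeR called none of either list in any region. Between fWBI and TBI in white matter 5 of the 41 signalling genes were higher (12.2%) and none lower after fWBI, and of the 27 other cytokine genes 6 were higher (22.2%) and 1 lower (3.7%). Over all genes tested there 4.8% were higher and 2.53% lower.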

How the data were processed

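The deposited table holds whole-number counts per gene for all 45 libraries; the authors aligned and counted reads with STAR and featureCounts, per the submitters' processing notes, which also name FastQC and DESeq2 without versions. The sources used here give no genome build, annotation, strand setting or treatment of shared reads. Libraries were stranded total RNA depleted of ribosomal RNA, per the labels' protocols. Gene IDs were paired with symbols through a gene name table: 15769 of 30246 IDs had one, and IDs without a symbol took 16.04% to 23.81% of a library's counts. Of 164 symbols of that table that fit the rule, 114 had a row in the counts.

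Counts were tested with edgeR 4.0.16 in R 4.3.3: TMM scaling, filterByExpr (minimum count 10), robust quasi-likelihood fits and Benjamini-Hochberg adjustment over all genes tested, with a threshold of 0.05. Irradiation groups were compared within a region over its 15 libraries, regions within control animals and effects between regions with the animal as a block. CPM use TMM factors of all 45 libraries. Alternatives were DESeq2 1.42.0 (its size factors, and its test), no filter, 2 groups only, a replicate block, each library left out, a neuron marker covariate, and control white matter libraries 1 and 3 left out. The tests were also run on simulated counts with a fixed spread and no animal effect. That setting does not cover the real spread, the blocks or changes in genes with few counts.

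The family members, gene lists, marker lists and alternatives were chosen with earlier results of these data known. Every member past the threshold in an irradiation comparison was to be named, or the 5 with the smallest p where fewer than 3 passed; for control regions, up to 6 higher and 6 lower by fold change; for differences of effects, all called or the 3 with the smallest p. Other members named are ligand and receptor partners or were chosen after their values were seen. From the signalling list more genes were named in white matter than the planned 6 by fold change, also chosen after their values were seen. The labels tie regions to animals: same-animal libraries of 2 regions correlated in their deviations from the group means (median r 0.30, 42 of 45 pairs over 0.1). No 2 libraries of a group agreed within sampling noise.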

Additional observations from a re-analysis of the deposited data

Results flagged for a closer look

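In 6 of 42 groups of 5 libraries examined, 1 animal stood apart from the other 4 by Dixon's ratio (above 0.71), a flag that chance gives in about 1 of 20 groups. CCL8 in fWBI white matter was at 20.6 CPM in animal 1 and 1.99 to 5.96 CPM in the others, and in fWBI hippocampus at 5.93 CPM in animal 2 and 1.92 to 2.75 CPM in the others. In control hippocampus CCL8 was at 1.1 CPM in animal 1 and 0.272 to 0.489 CPM in the others. IL17RD in fWBI white matter was at 20.7 CPM in animal 1 and 15.3 to 16.2 CPM in the others. IL15 was at 0 CPM in control white matter of animal 5 and at 0.859 to 1.11 CPM in the others, and IL15RA at 3.07 CPM in control animal 4 and 0.986 to 1.56 CPM in the others. Apart from IL17RD, and CCL8 in fWBI white matter with 20 to 220 counts, the flagged groups are low in counts.

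The fWBI difference itself differed between regions in 17 cases, each past the threshold of the interaction test over all genes. White matter minus prefrontal cortex gave, on the log2 scale, 2.35 for TNFRSF14, 1.36 for TNFRSF1B, 1.22 for TNFSF12, 1.22 for CXCL16, 0.85 for TNFRSF1A, 0.84 for IL4R, -0.91 for TNFRSF17 and -0.94 for IL17RD. White matter minus hippocampus gave 1.94 for TNFRSF14, 1.78 for CXCR4, 1.18 for TNFRSF10A, 1.14 for IL4R, 1.10 for TNFSF12, 1.07 for TNFRSF1B, 0.95 for IL6R, 0.81 for TNFRSF1A and -1.08 for IL17RD.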

How the results depend on the processing

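No call on a named gene changed direction under any alternative run: of the gene values recomputed, 1417 kept their side of the threshold, 93 fell short of it and 29 passed it. The DESeq2 test gave more genes an adjusted p and called more of them. In white matter it called 32 of 80 after fWBI (main 18 of 51), 9 of 58 after TBI (main 0 of 51) and 14 of 76 between them (main 7 of 51). In the same order it called 4 of 65, 1 of 63 and 2 of 70 in hippocampus (main 2, 0 and 0 of 49). In prefrontal cortex it called 7 of 44, 5 of 44 and 2 of 62 (main 1, 0 and 1 of 43). Over all genes with an adjusted p, DESeq2 called in that order 16.9%, 4.83% and 8.29% in white matter, 1.51%, 0.34% and 0.752% in hippocampus and 2.82%, 1.51% and 0.536% in prefrontal cortex. With no filter 1 of 108 genes was called between fWBI and TBI in hippocampus (0.926%, against 0.244% of all genes). After fWBI in prefrontal cortex 2 of 108 were called (1.85%, against 0.571% of all genes). With only the 2 groups in the fit the counts were 1 after fWBI in hippocampus, 1 between fWBI and TBI there and 2 after fWBI in prefrontal cortex. Replicate numbers do not pair animals of different treatments: of 45 such pairs 14 correlated over 0.1 (median r 0.01). With them as a replicate block the counts were 16 after fWBI in white matter, 0 in hippocampus (CCL8 adjusted p = 0.0592, CXCL10 0.0689) and 4 in prefrontal cortex; without the animal block, control regions gave 30, 8 and 29 calls in place of 31, 8 and 29, and effects 9 and 8 in place of 8 and 9. In control regions IL12RB2 was lost without the block against prefrontal cortex in white matter (adjusted p = 0.154) and hippocampus (0.144). Shares over all genes are not given for the fits with only the 2 groups or a changed block. Their counts describe only how the calls held.

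Leaving out 1 library or animal at a time gave 17 to 20 calls after fWBI in white matter, 0 to 2 in hippocampus and 1 to 2 in prefrontal cortex. After TBI it gave 0 in each region. Between fWBI and TBI it gave 5 to 11, 0 to 1 and 1 to 2. In controls it gave 27 to 34 (white matter and prefrontal cortex), 25 to 33 (white matter and hippocampus) and 5 to 9 (hippocampus and prefrontal cortex), and for effects 7 to 10, 6 to 12 and 0. Shares over all genes are not given for these fits, so the counts describe only how the calls held. The 2 hippocampal calls after fWBI both failed without control animal 4 or 5. CXCL10 and, after TBI, CXCR6 had no value in hippocampus with only the 2 groups, since they did not pass the filter. Causes were not tested. Depth limits the family: 56 of the 114 genes were too low to test, and for these a change was not detectable at this depth with the filter.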
